A study of Mus musculus with 2 samples.

Results

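The cytosolic and mitochondrial machinery that charges tRNAs and drives translation was followed in mouse liver with and without hepatocyte deletion of Hnrnpk. The genes were those with a symbol beginning with Eif or Eef and a digit (initiation and elongation factors and their regulators), or with "tRNA synthetase" in the table's gene description. The rule took 113 of 21936 genes, 71 factor genes and 42 synthetase genes. It used names only and no measured value. The control library came from livers of hnRNPK flox/flox mice, and the knockout library from hnRNPK flox/flox mice that also carried Alb-Cre. Both therefore carried the floxed allele. Alb-Cre puts the Cre recombinase under the promoter of albumin, a gene of hepatocytes, so deletion was directed at cells that use this promoter. Which cells of the liver lost the gene was not measured. There was 1 library per genotype. The sources do not give the sex, the age or how many mice went into each library. The title of the series uses other names, wild type for the control and hnRNPK-MKO for the knockout.

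Translation starts when eIF2 brings the initiator tRNA to the small ribosomal subunit, eIF3 and eIF4 factors bring the subunit to the capped mRNA, and eIF1, eIF1A, eIF5 and eIF5B set the start codon and the joining of the large subunit. The elongation factors eEF1A and eEF2 then deliver aminoacyl-tRNAs and move the ribosome along. Aminoacyl-tRNA synthetases load each amino acid on its tRNA. Mitochondria translate their own few mRNAs with a separate set of synthetases, which are encoded in the nucleus, and liver is rich in both systems because hepatocytes secrete plasma proteins and contain many mitochondria.

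Counted reads came to 12428975 (control) and 12176239 (knockout). Hnrnpk itself had 2559 control and 1411 knockout reads, a fold of 0.567 (95% interval 0.531 to 0.605). A fold here is the ratio of library-scaled reads, knockout over control, and its interval covers counting error only, since without replicates the spread between mice is unknown and no p-value can be given. Differences are also given as log2 ratios, computed with 0.5 added to each scaled count. Genes that reached FPKM 1 (a level per gene length and library depth) and 20 reads in the library where they were higher are called evaluated. Evaluated genes numbered 9563, with a median log2 ratio of -0.03. Hepatocyte markers summed to 1447091 control and 1471453 knockout reads, and 12 of 12 were evaluated. Alb alone gave 932293 and 907740 of these reads. Of the 12 hepatocyte markers, 8 had a log2 ratio above 0 and 4 below. They ran from Serpina1c (1568 and 1020 reads) to Serpina1a (16579 and 23230). Ductular markers summed to 501 and 1903 reads (7 of 10 evaluated), stellate and fibroblast markers to 3534 and 4868 (12 of 12), macrophage markers to 3857 and 3357 (10 of 14), endothelial markers to 5820 and 4916 (8 of 8), and lymphocyte markers to 156 and 126 (0 of 8). The macrophage sum hides opposite members: of 10 evaluated, 4 had a log2 ratio above 0 and 6 below. They ran from Timd4 (74 and 32 reads) to Marco (35 and 65). Trem2, Gpnmb, Ccr2 and Cx3cr1, not evaluated, had more reads in the knockout, for Trem2 3 and 25. No ductular, stellate, macrophage or endothelial marker was at 0 in either library. The part of these cell types in the values below was not tested. In bulk tissue, fewer cells of a type and less RNA per cell cannot be told apart.

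Of the 113 genes, 102 were evaluated, 63 factors and 39 synthetase genes. At a difference of 2-fold, 0 of them were higher in the knockout, where 2.48% of all evaluated genes were, and 1 was lower, where 1.11% were. In either direction 3.59% of all evaluated genes passed this size. At 1.5-fold, 1 member was higher, against 6.15% of all evaluated genes, and 1 was lower, against 5.29%. Small differences of one direction were common. The log2 ratio was above 0 in 67 of the 102 genes, against 46.0% of all evaluated genes. The counting interval lay above 1 in 43 members and below 1 in 14, against 20.8% and 26.0% of all evaluated genes. The median log2 ratio was 0.10, with quartiles of -0.08 and 0.22, beside quartiles of -0.24 and 0.19 over all evaluated genes.

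Eif4e3, a cap-binding relative of eIF4E, was the member past 2-fold. It lies on chromosome 6 of mm10 (99625135 to 99666771, minus strand) and had 79 control and 38 knockout reads, FPKM 2.53 and 1.24. Its fold was 0.495 (0.327 to 0.737). The call rests on few reads: the log2 ratio was -1.01 as computed here, -0.98 with 2 added to each count and -0.96 after a correction for GC content, both inside the 2-fold limit. Gm20696, a gene with 0 reads in both libraries, shares 373 exon bases with it on the same strand.

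Eif2d, which works in ribosome recycling and can bring tRNA to the small subunit, was the member past 1.5-fold on the high side. It lies on chromosome 1 (131153181 to 131187658, plus strand) and had 373 control and 571 knockout reads, FPKM 4.07 and 6.36. Its fold was 1.58 (1.38 to 1.80). Rassf5 shares 78 exon bases with it on the opposite strand and had 81 and 96 reads.

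The genes that select the start codon or handle the initiator tRNA were mixed, with 10 of 18 above 0 and a median log2 ratio of 0.06. The 4 genes of eIF2, the complex that carries the initiator tRNA, had a median of 0.17. Eif2s1, the alpha subunit that stress kinases phosphorylate, had 497 control and 616 knockout reads, a fold of 1.28 (1.13 to 1.44). Eif2s2, the beta subunit, had 730 and 821 reads, a fold of 1.16 (1.05 to 1.28). The alpha and beta subunits were thus higher in the knockout library beyond counting error. The gamma subunit has an X-linked and a Y-linked gene. Eif2s3x had 740 and 782 reads, a fold of 1.09 (0.982 to 1.20), and the Y-linked Eif2s3y had 534 and 472, a fold of 0.909 (0.802 to 1.03). Both libraries therefore held reads assigned to a Y-linked gene, which made up 41.9% (95% Clopper-Pearson interval 39.2 to 44.7) of the reads of this pair in the control and 37.6% (35.0 to 40.4) in the knockout. Reads of these similar copies may have been split between them in a way the sources do not state.

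Eif2a, a separate factor that can also deliver tRNA, had 540 control and 696 knockout reads, a fold of 1.33 (1.18 to 1.49). Within eIF2B, the exchange factor that reloads eIF2 with GTP, 4 of 5 subunits were above 0, with a median of 0.10. The highest was Eif2b2, the beta subunit, with 162 and 223 reads and a fold of 1.42 (1.15 to 1.74). Eif2b5, the catalytic epsilon subunit, had 465 and 520 reads and a fold of 1.15 (1.01 to 1.31). Eif2b3 and Eif2b4 had log2 ratios of 0.06 and 0.10 with intervals that included 1. Eif2b1, the alpha subunit, was nearest to no difference, with 351 and 336 reads and a log2 ratio of -0.02. The lowest of the start-codon genes was Eif1, which guards the fidelity of start selection. It had 1870 control and 1587 knockout reads, FPKM 71.7 and 62.1, and a fold of 0.873 (0.816 to 0.934), and it had the highest level in this group. Eif5, the GTPase activator of eIF2, had 3644 and 3243 reads and a fold of 0.915 (0.873 to 0.960). Eif5 was -0.02 on the log2 scale after a correction for gene length, so its sign held with little left of its size. The X-linked Eif1ax, which encodes eIF1A, had 436 and 400 reads and a fold of 0.944 (0.822 to 1.08). Its autosomal relative Eif1a, Eif1b, Eif1ad and the subunit-joining gene Eif5b had log2 ratios of -0.05, -0.06, 0.06 and -0.10, each with an interval that included 1.

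The 4 kinases that phosphorylate eIF2 under stress were close to the table as a whole, with 1 of 4 above 0 and a median of -0.12, and every counting interval included 1. Eif2ak4 (GCN2, which senses uncharged tRNA) had the lowest log2 ratio, -0.24, with 179 and 147 reads. Eif2ak2 (PKR, which senses double-stranded RNA) had -0.12, with 194 and 173 reads. Eif2ak3 (PERK, the kinase of the endoplasmic reticulum) had the highest, 0.06, with 189 and 192 reads. Eif2ak1 (HRI, which senses heme) had the highest level, FPKM 8.71 in the control, with 614 and 552 reads.

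eIF3, the scaffold of the initiation complex, leaned higher as a group. Of 13 evaluated subunit genes, 11 had a log2 ratio above 0, and the median was 0.17 both before and after the correction for gene length. Their summed reads were 13391 in the control and 14328 in the knockout, a fold of 1.10 (1.07 to 1.13). Eif3i had the highest ratio, with 783 and 986 reads and a fold of 1.30 (1.18 to 1.42). Eif3h, the subunit with the highest level, had 1213 and 1482 reads, FPKM 60.5 and 75.5, and a fold of 1.26 (1.16 to 1.36). Eif3g and Eif3k were similar in size, at log2 ratios of 0.31 and 0.30. Eif3a, the largest subunit, was the lowest, with 2355 and 2105 reads and a fold of 0.919 (0.867 to 0.975). Its direction depended on the correction for gene length, after which its log2 ratio was 0.01 in place of -0.12. Eif3b, Eif3e, Eif3f, Eif3l and Eif3m lay between 0.14 and 0.19 with counting intervals above 1, whereas Eif3c at 0.06 and Eif3d at 0.21, on 213 and 240 reads, had intervals that included 1. The nearest to no difference was Eif3j1, at -0.03. Eif3j2 was below the expression minimum, with 4 and 13 reads.

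**Figure D1:**
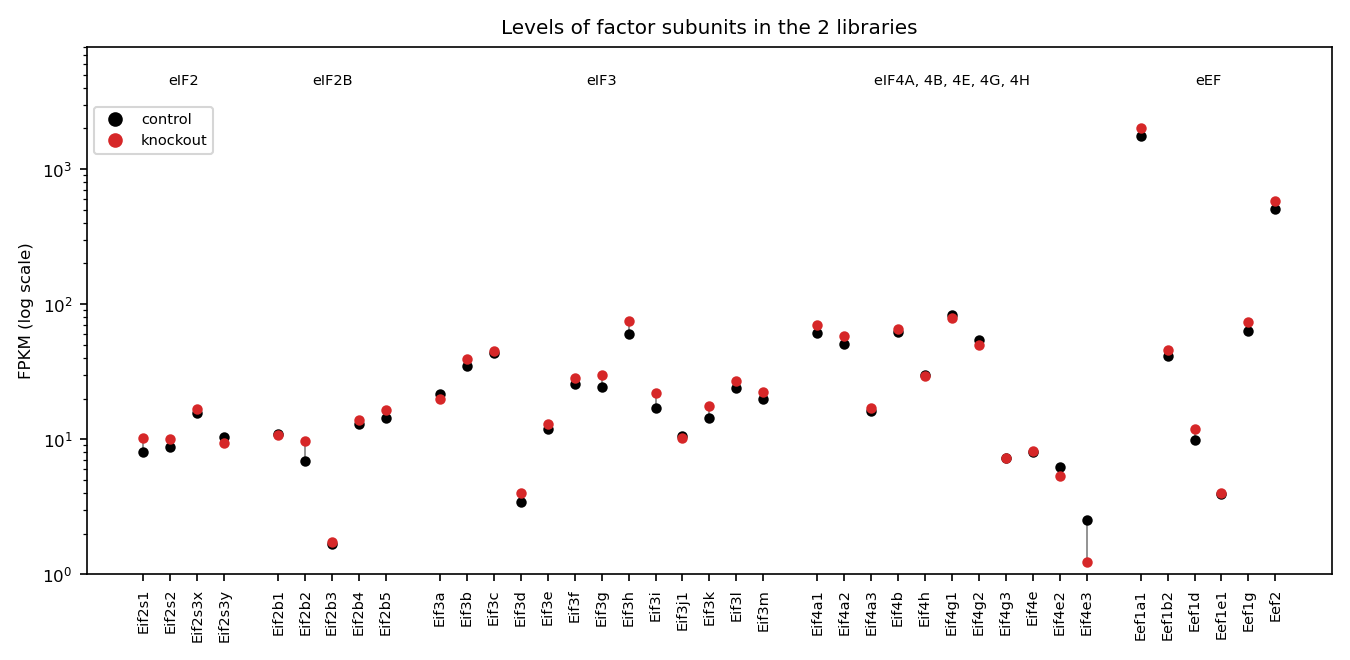
FPKM on a log axis for the evaluated subunit genes of eIF2, eIF2B and eIF3, for eIF4 genes and for elongation factor genes, with the control library in black and the knockout library in red and a line joining the pair. Of the genes drawn, most pairs lie close together, Eif4e3 is the widest at FPKM 2.53 and 1.24, and Eef1a1 is the highest at 1747 and 2011.

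The eIF4 genes, which bind the cap and unwind the mRNA, were mixed. Over 11 evaluated genes the median log2 ratio was 0.01 and 6 were above 0. The helicase genes Eif4a1 and Eif4a2 were higher in the knockout, with 3302 and 3686 reads for Eif4a1 (fold 1.15, 1.10 to 1.20) and 3365 and 3806 for Eif4a2 (fold 1.16, 1.11 to 1.22). Eif4b and Eif4h, which stimulate the helicase, had log2 ratios of 0.09 (fold 1.06, 1.01 to 1.11) and -0.01. Eif4a3, the helicase of the exon junction complex, had 427 and 439 reads and a log2 ratio of 0.08. The cap-binding gene Eif4e itself had 599 and 601 reads, a log2 ratio of 0.05. The scaffold gene Eif4g1, the highest level of the group at FPKM 83.2 and 79.0, had 7553 and 7022 reads and a fold of 0.956 (0.926 to 0.988). Eif4g2, a scaffold relative that lacks the cap-binding region, had 6900 and 6188 reads and a fold of 0.922 (0.891 to 0.955). These scaffold values are small. After the correction for gene length the log2 ratio of Eif4g1 changed sign to 0.05, and that of Eif4g2 moved from -0.12 to -0.01. Eif4e2, a cap-binding repressor of translation, had 584 and 487 reads and a fold of 0.858 (0.759 to 0.969). Its log2 ratio moved from -0.22 to -0.10 after the same correction. Eif4g3 was nearest to no difference, at 0.01.

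The 4 genes whose products bind eIF4E had a median log2 ratio of 0.01 over opposite members. Eif4ebp2, a repressor of eIF4E that mTOR inactivates and the highest level of the group, had 3728 control and 2899 knockout reads, FPKM 51.9 and 41.2, and a fold of 0.800 (0.762 to 0.840). The log2 ratio of Eif4ebp2 moved from -0.32 to -0.22 after the correction for gene length. Eif4ebp1, its close relative, went the other way, with 541 and 601 reads and a fold of 1.14 (1.02 to 1.29). Eif4enif1, which moves eIF4E to the nucleus and to processing bodies, had 339 and 405 reads and a fold of 1.23 (1.06 to 1.42). Eif4ebp3 had 35 and 30 reads and a fold of 0.882 (0.523 to 1.48).

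Among elongation factors, 6 of 6 evaluated genes were above 0, with a median log2 ratio of 0.22, or 0.12 after the correction for gene length. Eef1a1, which delivers aminoacyl-tRNA to the ribosome, had 54144 control and 61045 knockout reads, FPKM 1747 and 2011, and a fold of 1.16 (1.15 to 1.17). Its log2 ratio of 0.21 was 0.12 after the correction for gene length. Its share of all factor reads was 37.1% (control) and 39.1% (knockout). Eef2, the translocase, had 20777 and 23569 reads, FPKM 503 and 582, and a fold of 1.17 (1.15 to 1.19). The exchange factor genes Eef1d, Eef1g and Eef1b2 had log2 ratios of 0.28, 0.23 and 0.15. Eef1e1, a subunit of the multi-synthetase complex, had 160 reads in each library, a log2 ratio of 0.04. Eef1a2, the muscle and neuron form of eEF1A, had 1 and 0 reads.

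Of the enzymes that modify elongation factors, 5 of 7 were evaluated, on few reads. Eef2k, the kinase that inhibits eEF2, had 112 and 144 reads and a fold of 1.32 (1.03 to 1.71), the one interval of the group that did not include 1. Eef1akmt2, a lysine methyltransferase of eEF1A, had the highest log2 ratio, 0.51, with 36 and 50 reads. Eef2kmt, the methyltransferase of eEF2, had the lowest, -0.39, with 66 and 49. Eef1aknmt, another methyltransferase of eEF1A, had 171 and 142 reads and a log2 ratio of -0.23. Eef1akmt1 had the highest level, FPKM 4.67 and 4.94. Eif5a, which helps the ribosome through difficult peptide bonds, had 4183 and 4695 reads and a fold of 1.15 (1.11 to 1.20), and Eif6, which keeps free large subunits from pairing, had 591 and 618 reads and a log2 ratio of 0.10.

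**Figure D2:**
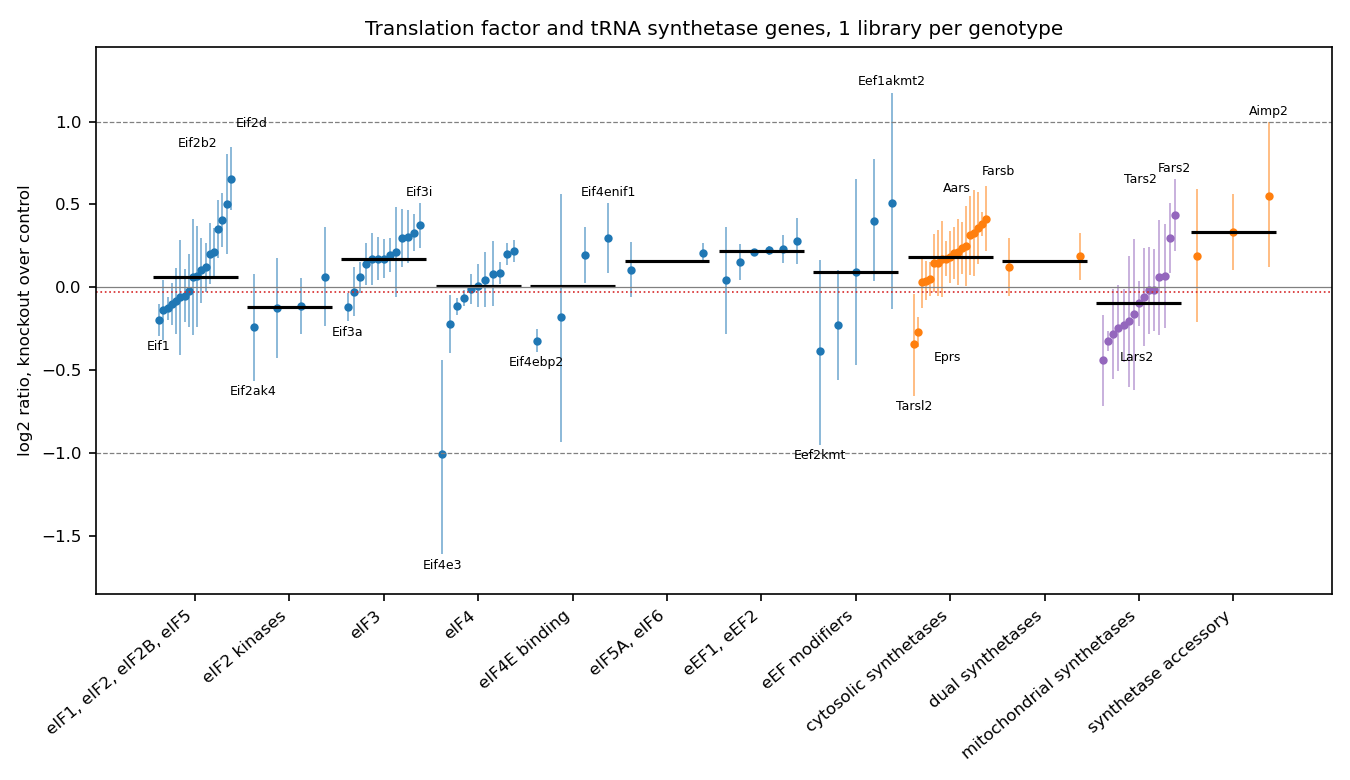
Log2 ratio of knockout over control for each of the 102 evaluated genes by role, with vertical lines for the 95% counting interval, black bars for the median of each role, a dotted red line for the median of all evaluated genes (-0.03) and dashed lines at 2-fold. Eif4e3 is the one point at the 2-fold line, and the mitochondrial synthetases (purple) sit lower than the cytosolic ones (orange).

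Factors and synthetase genes taken as classes did not separate. The median log2 ratio was 0.09 over 63 factors and 0.15 over 39 synthetase genes, a difference of 0.05. This difference was -0.02 when regulators and accessory genes were left out and 0.00 after a correction for GC content, so neither class can be called higher. Summed reads gave a fold of 1.10 (1.09 to 1.11) for factors and 1.03 (1.01 to 1.04) for synthetase genes, and Eef1a1 and Eef2 held most of the former.

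The division lay inside the synthetases. Of 19 evaluated cytosolic synthetase genes, 17 had a log2 ratio above 0, with a median of 0.18. Of 15 evaluated mitochondrial synthetase genes, 4 were above 0, with a median of -0.10. Over all evaluated genes 46.0% were above 0. The counting interval lay above 1 in 11 cytosolic genes and below 1 in 2. Among the mitochondrial genes it lay above 1 in 2 and below 1 in 4, against 20.8% and 26.0% of all evaluated genes. After the correction for gene length 6 of the 15 mitochondrial genes were above 0. The difference between the cytosolic and mitochondrial medians was 0.28. It lay between 0.24 and 0.31 under the alternatives of scaling, added count, filter, gene length, GC content and membership that were tried. The highest value was that without Fars2. Summed reads had a fold of 1.10 (1.08 to 1.13) for the cytosolic genes and 0.874 (0.847 to 0.901) for the mitochondrial genes. The mitochondrial share of all synthetase reads was 36.1% (35.5 to 36.7) in the control and 30.9% (30.3 to 31.4) in the knockout. Lars2, which alone held 55.3% and 50.7% of the mitochondrial synthetase reads, carried much of that shift and of the fold of the mitochondrial sum. The other mitochondrial genes, with those below the minimum, had 4103 control and 3840 knockout reads. All synthetase reads other than those of Lars2 came to 20347 and 21271. Without Lars2 the share was 20.2% (19.6 to 20.7) and 18.1% (17.5 to 18.6), and the median of the mitochondrial genes was -0.08.

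Among the cytosolic genes the highest log2 ratios were those of Farsb, Aars and Hars. Aars, the alanyl-tRNA synthetase (chromosome 8, 111033144 to 111057664, plus strand), had 2657 control and 3364 knockout reads, FPKM 23.0 and 29.8, the highest knockout level among cytosolic synthetases, and a fold of 1.30 (1.24 to 1.37). Farsb, the beta subunit of the phenylalanyl-tRNA synthetase, had 376 and 487 reads and a fold of 1.33 (1.16 to 1.53), and its alpha subunit Farsa had 271 and 313 and a fold of 1.19 (1.01 to 1.40). The genes nearest to no difference were Iars, Dars and Tars, for isoleucine, aspartate and threonine, at 0.03, 0.04 and 0.05. Nars, for asparagine, had the highest control level, FPKM 25.2, and 28.2 in the knockout.

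The cytosolic genes below 0 were Eprs and Tarsl2. Eprs, the fused glutamyl- and prolyl-tRNA synthetase (chromosome 1, 185363044 to 185428360, plus strand), had 2252 and 1812 reads and a fold of 0.828 (0.778 to 0.881). It is a long gene model, and its log2 ratio moved from -0.27 to -0.07 after the correction for gene length. Tarsl2, a second cytosolic threonyl enzyme, had 204 and 156 reads and a fold of 0.787 (0.634 to 0.974). The cytosolic enzymes of the multi-synthetase complex, a large assembly that also holds Aimp1 and Aimp2, had a median of 0.17 over 7 genes, and the others 0.24 over 12. The scaffold genes Aimp1 and Aimp2 had folds of 1.26 (1.08 to 1.48) and 1.47 (1.09 to 1.99), with 287 and 352 reads for Aimp1 and 77 and 110 for Aimp2. Aimp2 shares 487 exon bases with Eif2ak1 on the opposite strand, so reads there cannot be told apart without strand information. Prorsd1, which holds a prolyl-tRNA synthetase domain, had 100 and 111 reads and a log2 ratio of 0.19. Gars and Kars, whose products serve both compartments, had log2 ratios of 0.12 and 0.19.

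Among the mitochondrial genes Lars2, the leucyl enzyme (chromosome 9, 123366927 to 123462666, plus strand), had 5084 and 3942 reads, FPKM 36.9 and 29.2, and a fold of 0.798 (0.765 to 0.832). Its log2 ratio moved from -0.33 to -0.19 after the correction for gene length. Nars2 and Hars2 also had intervals below 1, with folds of 0.822 (0.681 to 0.991) and 0.853 (0.733 to 0.993). The genes that went against the group with intervals above 1 were Fars2 and Tars2. Rars2 and Cars2 were also above 0, at 0.07 and 0.06, with intervals that included 1. Fars2 (chromosome 13, 36117412 to 36726280, plus strand) had 309 and 406 reads and a fold of 1.35 (1.16 to 1.57). It shares 501 exon bases with Nrn1 on the opposite strand, and Nrn1 had 1469 and 2071 reads. Tars2 had FPKM 3.90 and 4.75 and a fold of 1.23 (1.06 to 1.42). Without Fars2 the median of the mitochondrial genes was -0.13. Vars2 and Yars2 were nearest to no difference, at -0.02 each.

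The genes of the cytosolic and mitochondrial enzyme of the same amino acid were also set side by side. In 16 pairs over 15 amino acids both genes were evaluated. The mitochondrial gene had the lower log2 ratio in 12 pairs and the higher in 4, and the median difference was -0.21. With minima of FPKM 5 and 50 counts 7 pairs were left, and the mitochondrial gene was lower in 5 of them. Its counting interval lay below 0 for 6 pairs. Among these were alanine (-0.63, interval -0.90 to -0.35), histidine (-0.58, -0.89 to -0.27), leucine (-0.50, -0.73 to -0.26), asparagine (-0.46, -0.75 to -0.16) and serine (-0.44, -0.87 to -0.02). It lay above 0 for threonine (0.25, 0.01 to 0.48). The pairs for cysteine, isoleucine, arginine, tryptophan, tyrosine and valine were also lower on the mitochondrial side, with intervals that included 0, and those for glutamate and for both phenylalanine subunits, which share Fars2, were higher with intervals that included 0. Hars and Hars2 are neighbours that share 195 exon bases on opposite strands, where reads cannot be told apart without strand information.

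**Figure D3:**
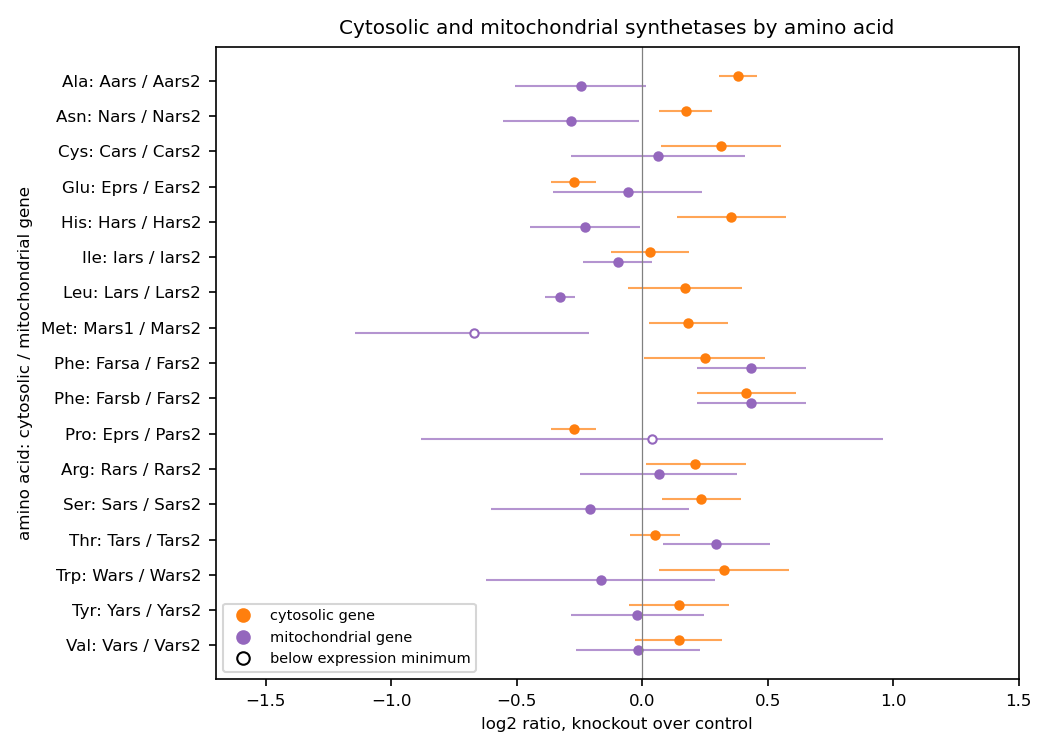
Log2 ratio of knockout over control for the cytosolic (orange) and mitochondrial (purple) synthetase gene of each of 17 pairs, with 95% counting intervals and open circles for genes below the expression minimum. Alanine, histidine and leucine are the widest evaluated pairs (-0.63, -0.58 and -0.50), and threonine runs the other way (0.25).

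For alanine the reads were 2657 and 3364 for Aars beside 273 and 224 for Aars2. For histidine they were 320 and 398 for Hars beside 381 and 316 for Hars2. For leucine they were 307 and 336 for Lars beside the 5084 and 3942 of Lars2. In these pairs the cytosolic gene had more reads in the knockout library and the mitochondrial gene fewer. The same held for asparagine, with 1364 and 1495 reads for Nars and 259 and 207 for Nars2, and for serine, with 621 and 711 for Sars and 120 and 101 for Sars2. Tryptophan was of like size but on few reads, with 229 and 279 for Wars and 90 and 78 for Wars2. In the other pairs with a lower mitochondrial ratio the mitochondrial gene had a counting interval that included 1, with 140 and 142 reads for Cars2, 171 and 174 for Rars2, 912 and 829 for Iars2, 246 and 236 for Yars2 and 277 and 266 for Vars2. Their cytosolic partners Cars, Rars and Vars had 269 and 325, 396 and 446, and 528 and 568 reads. Ears2, for glutamate, had 197 and 184 reads. Qars, which has no mitochondrial partner gene because mitochondria make glutaminyl-tRNA by another route, had 630 and 706 reads and a fold of 1.15 (1.03 to 1.29). Mars1, for methionine, had 635 and 701 reads and a log2 ratio of 0.18.

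The level of the 2 enzymes differed widely between amino acids. Per length, the cytosolic gene was the higher in FPKM in 16 of 18 pairs in the control and 15 of 18 in the knockout. For histidine the ratio of cytosolic to mitochondrial FPKM was 1.47 in the control and 2.20 in the knockout. For leucine the order was reversed, with a ratio of 0.125 in the control and 0.176 in the knockout, and Lars2 had the highest FPKM of the synthetase genes in the control. These counts of levels include the methionine and proline pairs, which were left out of the comparison of log2 ratios because their mitochondrial genes were below the minimum. Mars2 had 105 and 64 reads (FPKM 0.748 and 0.465), and Pars2 had 22 reads in each library.

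Synthetase genes are known targets of ATF4, a transcription factor that is made when eIF2 is phosphorylated and that binds, with C/EBP partners, an element written TGATGNAA (TTNCATCA on the other strand). These letters were searched on both strands of RefSeq promoter windows of GRCm38.p6, from 250 bases before to 50 after each start site, after the ratios had been seen. A window was found for 86 of the 113 genes, among them 12 of 19 cytosolic and 14 of 17 mitochondrial synthetase genes. The element was in 4 of 12 cytosolic synthetase genes, 1 of 2 dual genes, 0 of 14 mitochondrial genes and 2 of 54 factor genes, beside 4.51% of all genes with a window. Aars held 2 matches, at -112 and at 10 from the start site, and the latter is shown. A stretch around 1 match is shown for each of these synthetase genes because they share the element. The element is in capitals and each stretch is read on the gene's strand.
Aars (chr8:111033840-111033869, plus strand): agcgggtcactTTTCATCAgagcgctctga
Gars (chr6:55037960-55037989, plus strand): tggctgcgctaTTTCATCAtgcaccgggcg
Iars (chr13:49682126-49682155, plus strand): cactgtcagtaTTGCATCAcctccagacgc
Tars (chr15:11399655-11399684, minus strand): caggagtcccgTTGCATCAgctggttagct
Yars (chr4:129189895-129189924, plus strand): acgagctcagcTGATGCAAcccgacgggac

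Of the synthetase genes with the element, Aars had a log2 ratio of 0.38, Yars 0.15, Gars 0.12, Tars 0.05 and Iars 0.03. A match of letters does not show binding, and whether ATF4 had a part in these ratios was not tested. The factor genes with a match were Eef2k and Eif2s3x, at 0.40 and 0.12.

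Other genes of the translation system, listed with earlier results of these data known, gave a frame for these values. None of the evaluated genes of the 5 pathway lists passed 2-fold, where 3.59% of all evaluated genes did. The mitochondrial translation factors, 14 of 14 evaluated, had a median of 0.08, from -0.75 for Mtrf1l, a release factor (97 and 56 reads), to 0.30 for Tufm, the mitochondrial elongation factor (1347 and 1610 reads). Termination, recycling and poly(A)-binding genes, 17 of 19 evaluated, had a median of 0.04, from -0.49 for Efl1 (190 and 131 reads) to 0.33 for its partner in ribosome maturation, Sbds (598 and 730). Genes that make diphthamide on eEF2 and hypusine on eIF5A, 7 of 9 evaluated, had a median of 0.22. They ran from -0.60 for Dnajc24 (64 and 41) to 0.27 for Dph3 (98 and 115). The counting interval lay above 1 in 0 of these genes and below 1 in 2, Dnajc24 and Dhps. Their summed reads had a fold of 0.997 (0.891 to 1.11).

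The mTOR and eIF4 control genes, 13 of 13 evaluated, had a median of -0.05. Sesn2, a stress-induced inhibitor of mTOR, was highest at 0.66 (87 and 134 reads), and Ddit4, another inhibitor, lowest at -0.56 (304 and 200). Genes upstream and downstream of eIF2 phosphorylation, 9 of 13 evaluated, had a median of 0.18. Atf5 was highest at 0.76 (577 and 951 reads), Atf4 had 0.41 (974 and 1262), and Chac1, an ATF4 target, was lowest at -0.54 (63 and 42). The members of this list did not move one way.

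Set beside ribosomal protein genes, the 78 cytosolic ones had a median of 0.29 with 73 above 0, and the 76 mitochondrial ones 0.18 with 60 above 0. The cytosolic ribosomal proteins are short genes, and log2 ratios in these libraries depended on length, from a median of 0.13 in the decile of shortest evaluated genes to -0.16 in the decile of longest. After the correction for gene length the medians were 0.19 for cytosolic and 0.14 for mitochondrial ribosomal proteins, 0.25 for cytosolic synthetases, -0.05 for mitochondrial synthetases and 0.10 for factors. The order of cytosolic synthetases and cytosolic ribosomal proteins thus changed with the correction, while the mitochondrial synthetases stayed lowest of these groups.

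**Figure D4:**
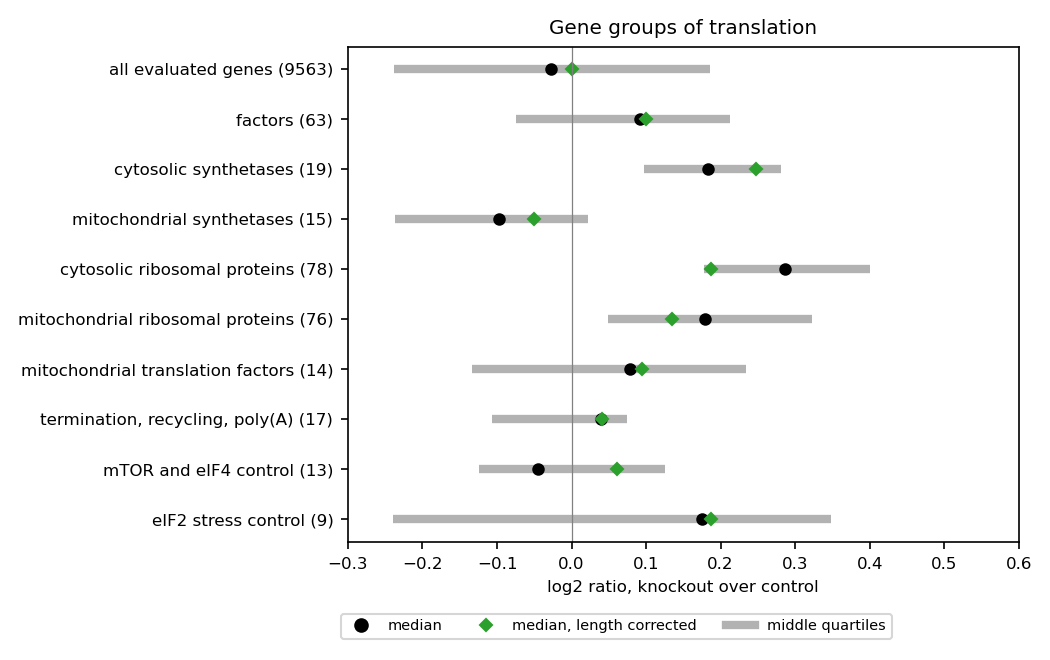
Median log2 ratio of knockout over control (black circles), its quartiles (grey bars) and the median after the correction for gene length (green diamonds) for groups of translation genes, with the number of evaluated genes in brackets. Of the groups drawn, mitochondrial synthetases lie lowest before and after the correction (-0.10 and -0.05), and cytosolic synthetases move from 0.18 to 0.25.

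The 11 genes below the expression minimum were Eef1a2, Eef1akmt3, Eef1akmt4, Eif3j2, Eif4a3l1, Eif4a3l2, Eif4e1b, Eif5a2, Aarsd1, Mars2 and Pars2. Eif4a3l1, Eif4a3l2 and Eif4e1b had 0 reads in both libraries, which allows a CPM of up to 0.241 in the control and 0.246 in the knockout. Aarsd1, which holds an alanyl-tRNA synthetase domain, had 11 and 2 reads.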

How the data were processed

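RNA sequencing of mouse liver was analysed from 1 gene table with 2 libraries. The authors deposited, for each gene and library, read counts in whole numbers and FPKM values, and the FPKM of all 21936 genes was recomputed from the count, gene length and library total within a relative tolerance of 1e-06. Per the labels' protocols RNA was extracted with Trizol and libraries followed a Lifetech protocol. Bowtie2 2.4.2 and mm10 are named, per the submitters' processing notes. For the counting program, annotation, strand setting and multiply matching reads nothing is stated in the sources, so genes with shared exons or near-identical copies are uncertain: 30 members share exon bases with another gene of the table in GENCODE M21, where 112 of 113 had the same coordinates.

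Library totals were scaled by TMM (edgeR 4.0.16, R 4.3.3). Folds have exact Clopper-Pearson 95% intervals, which cover counting error only, as do the floors of 3 counts. With 1 library per genotype there was no test, and a size of 2-fold or 1.5-fold on the log2 ratio (0.5 added) took its place. Length and GC corrections subtracted a running median over 401 genes. Alternatives included DESeq2 1.42.0 size factors. Python 3.11.15 was used. The calculation was tested on simulated data. The members, roles and lists were chosen with earlier results of these data known. Named genes were the extremes, the nearest to 0 and the highest level of each role, the amino acid pairs, sex-linked members and list extremes. Further members were named after their values were seen. Some results on single members are not reported here, while counts and medians cover all members.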

Additional observations from a re-analysis of the deposited data

How the results depend on the processing

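Values with 2 libraries have no replicate check, and 3 counts set the floor. No paired analysis was possible because there was 1 library per genotype. The count of members past 2-fold on the low side was 0 with 2 added to each count, with minima of FPKM 5 and 50 counts, and after the GC correction, and 2 with a filter of 10 reads in total. The count on the high side was 1 with 10 reads in total and 1 at 1.5-fold. The median of synthetase genes was 0.0944 both with 10 reads in total and without accessory genes. The difference of synthetase genes minus factors was -0.00193 with 10 reads in total, 0.00265 after the GC correction and -0.0182 over core members. The median of factors was 0.13 with FPKM 5 and 50 counts and 0.153 after the GC correction. With FPKM 5 and 50 counts the mitochondrial gene was lower in 5 of 7 pairs left, against 12 of 16, and the median of eIF4E-binding genes was 0.192. After the length correction the medians were 0.247 for cytosolic synthetases, 0.0862 for eIF4 and 0.124 for elongation factors. The median of elongation factor modifiers had no value with FPKM 5 and 50 counts, since none was left. No member past 2-fold changed sign. Medians close to 0 did. That of elongation factor modifiers, 0.09, was -0.07 with 10 reads in total and -0.06 after the length correction. That of eIF4E-binding genes, 0.01, was -0.05 after the length correction, -0.0043 with library totals and -0.00098 with DESeq2 size factors. That of eIF4, 0.01, was -0.01 after the GC correction and -0.0012 with library totals. Signs of single members changed in 14 of 102 after the length correction, 7 after the GC correction, 1 with library totals and 0 with DESeq2 size factors. The removal of Lars2 or Fars2, the grouping by multi-synthetase complex, the ribosomal protein comparators, the plain ratio with nothing added (0 higher and 1 lower) and the promoter element were chosen after seeing the data, as was the use of the log2 ratio with 0.5 added, in place of the plain ratio, for the size rule. The cause of these shifts was not tested.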
